A study of Rattus norvegicus with 27 samples.

Results

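The data described here are the effect of limited bedding (LB) on messenger RNA in the cerebellar interpositus nucleus of male rats. The comparison takes the 8 LB males and the 7 males reared normally (no treatment, NT), chosen by the sex and treatment given in the sample labels. These are 15 of the 27 animals sequenced, and the other 12 are females. All were Long-Evans rats killed on postnatal day 70. LB animals were raised with little nesting material from postnatal day 2 to 9, and NT animals had standard bedding throughout. Animals are named here by their sample titles, which were 121, 122, 123, 7121, 7122, 9121, 9122 and 9123 for LB males and 3111, 3112, 3113, 4111, 4113, 6111 and 6112 for NT males. Litters had been cross-fostered, the bedding was a property of the whole cage, and weaned pups were housed with animals of the same sex and treatment. Titles that share all but the last digit form 6 sets of 2 or 3 animals, each of a single treatment, so that LB and NT males are compared over 3 sets each. What such a set stands for is not given in the sources used here.

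The interpositus is one of the deep cerebellar nuclei, the cell groups through which the cerebellum sends its output. Its large glutamatergic projection neurons receive inhibition from Purkinje cells, and they lie in white matter below the cerebellar cortex, whose granule cells outnumber every other neuron. The roof of the fourth ventricle, with its choroid plexus and ciliated ependymal lining, lies just below the nuclei, and vestibular and other brainstem cell groups lie close by. A round punch across consecutive frozen sections can therefore hold different amounts of each. In limited bedding the dam cannot build a full nest, which makes her care fragmented and raises the stress of the pups.

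Total counts ranged from 11836684 to 18351798 (median 14442767) in NT males and from 14271921 to 24169170 (median 15717756) in LB males. Levels are given in CPM, counts scaled to a fixed library total after TMM normalization, and a fold change is the log2 of LB over NT, with its standard error (SE). The Y-linked gene Eif2s3y had 516 to 1842 counts in the 15 males and at most 3 in the females. Markers of cerebellar granule cells summed to between 3527 and 11162 CPM and those of deep nucleus neurons to between 953 and 5127 CPM, but Slc17a6 and Meis2, which define the projection neurons of the nucleus, were at 0.28 CPM each in NT male 4111, at 0.47 and 0.36 CPM in LB male 9121 and at 1.26 and 0.27 CPM in LB male 7121. They also held markers of forebrain neurons, which summed to 316 to 735 CPM in NT males and 449 to 665 CPM in LB males. NT males 6112 and 4113 stood apart in the cell type markers described next, so results that rest on them are also given without both. Leaving out these animals was decided after their values were seen.

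No gene passed the threshold of an adjusted p of 0.05 between LB and NT males by the quasi-likelihood test of edgeR with Benjamini-Hochberg adjustment over 12107 genes, where the smallest adjusted p was 0.462. At an unadjusted p under 0.05, 605 genes were higher in LB males (5.0% of those tested) and 606 were lower (5.01%). By limma-voom 0 genes passed the threshold, and by DESeq2 3 did, all lower in LB males and among them Tnnt1 and Spp1. The likelihood ratio test of edgeR added Slc5a7 and F5 to these, for 5 genes. Each of the 5 had its highest value in NT male 6112 or 4113. The split of higher and lower genes depended on the scaling, since upper quartile normalization gave 338 genes higher and 744 lower, and limma-voom gave 758 and 298.

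The differences were small for most genes. The median size of a log2 fold change was 0.16, against a median SE of 0.18, and the median over all genes was -0.02. The larger differences were mostly in 1 direction, since 185 of the 199 genes with a log2 fold change over 1 in size were lower in LB males. Genes lower at an unadjusted p under 0.05 had a median log2 fold change of -0.64, and the genes higher had one of 0.33. The groups overlapped for nearly every gene, and a single gene (0.00826% of those tested) separated all 8 LB from all 7 NT males. This was Mrps9 (chr9:49647257-49704828 of the rn6 build), which encodes a protein of the small subunit of the mitochondrial ribosome. Its level was between 51.8 and 60.3 CPM (median 56.1) in NT males and between 60.4 and 69.2 CPM (median 61.8) in LB males, with a log2 fold change of 0.18 ± 0.08 (SE).

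Single animals set many of these values. NT male 6112 had the highest level of 429 of the 606 genes lower in LB males (70.8%), whereas over all genes tested it was the highest of the 15 males for 21.1%. It also had the lowest level of 418 of the 605 genes higher in LB males (69.1%, against 17.2% over all genes). Without it, 283 genes were higher and 184 lower, of which 254 and 169 were among the genes of the full comparison. Without 4113 as well, 243 genes were higher and 153 lower, and 191 and 118 of these were shared, or 31.6% and 19.5% of the genes of the full comparison. Without NT male 6111 the counts were 165 and 669, without NT male 3113 they were 994 and 921, without NT male 4111 they were 456 and 962, and without LB male 123 they were 335 and 443. Without 6111 and 6112 together, 54 genes were higher and 242 lower, and without NT males 3111, 3112 and 3113 the counts rose to 1324 and 1316, with 13 genes past the adjusted threshold.

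Several of the largest differences, all lower in LB males, were in genes of cells outside the interpositus or at its border. Cholinergic neurons use the choline transporter Slc5a7 to take up choline and the vesicular transporter Slc18a3 to load acetylcholine. Slc5a7 ranged from 0.2 to 131 CPM (median 0.69) in NT males and from 0 to 1.12 CPM (median 0.38) in LB males, with a log2 fold change of -5.50 ± 1.14. The high value was that of 6112, and the next NT male had 2.33 CPM, so the remaining animals overlapped. Without 6112 and 4113 its log2 fold change was -1.40. Slc18a3 had a value of 10.6 CPM in 6112, at most 1.21 CPM in the other NT males and at most 0.74 CPM in LB males. All 4 tested cholinergic markers had their highest value in 6112, and 3 of them were lower in LB males at an unadjusted p under 0.05. Without 6112 alone none of the 3 still tested was. The median log2 fold change of the 4 was -2.67, beside -0.02 over all genes, and -1.04 over the 3 that could be tested without 6112 and 4113. Slc18a3 did not pass the filter for low counts without these animals, so its place among the 4 rests in part on the high value in 6112. In bulk tissue, fewer cells of a type and less RNA per cell cannot be told apart.

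A muscle gene followed the same animal. Tnnt1, the troponin T of slow muscle fibres, was 53.7 CPM in 6112 and at most 10.1 CPM in other NT males. It was between 0.46 and 1.99 CPM in LB males, and its log2 fold change of -3.16 ± 0.75 became 0.01 without 6112 and 4113.

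The secretory epithelium of the choroid plexus makes cerebrospinal fluid and is the main source of transthyretin (Ttr) in the brain. Ttr ranged from 1.95 to 6339 CPM (median 51.3) in NT males and from 5.43 to 168 CPM (median 13.5) in LB males. The high NT male was 4113, and the next had 107 CPM, below LB male 122 with 168 CPM. The log2 fold change of -4.88 ± 1.35 was -0.31 without 6112 and 4113. The other choroid plexus markers behaved alike, and all 8 tested were highest in 4113. Of the 8, 7 were lower in LB males at an unadjusted p under 0.05 and none was higher, with a median log2 fold change of -2.11. By limma-voom, and with title set as a random block, none of the 8 had an unadjusted p under 0.05, and by DESeq2 3 of 7 had. Without 4113 alone none of the 7 that could be tested had an unadjusted p under 0.05 in either direction, and their median was -0.17. Without both animals the median was 0.01 over the 6 that could be tested. Sostdc1 and Folr1 did not pass the filter for low counts then, so their place among the 8 rests in part on animals in which they were high.

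Further genes were high in 4113. F5, coagulation factor V, reached 32.4 CPM there and at most 1.85 CPM in other NT males, and lay between 0.17 and 1.06 CPM in LB males. Its log2 fold change was -3.48 ± 0.80, and -0.51 without both animals. Sostdc1, a secreted antagonist of bone morphogenetic protein and Wnt signals, and Cldn2, a claudin of leaky epithelia, reached 67.5 and 29.2 CPM in 4113 and at most 2.57 and 1.17 CPM in other NT males. Kcnj13 and Folr1, a potassium channel and a folate receptor of this epithelium, were also highest in 4113, at 37.7 and 31.6 CPM.

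Motile cilia line the ventricle and are built under the control of the transcription factor Foxj1. Foxj1 was between 1.58 and 31.4 CPM (median 4.54) in NT males and between 2.75 and 7.82 CPM (median 3.81) in LB males. NT males 6112 and 4113 were above every LB male with 31.4 and 23.1 CPM, and the remaining NT males overlapped with LB males. The log2 fold change of -1.23 ± 0.44 was 0.29 without these 2 animals. Cfap126, a protein of the ciliary axoneme, was 20.8 CPM in 6112 and at most 3.22 CPM in LB males, the latter in 9122. All 6 tested markers of ciliated cells were lower in LB males at an unadjusted p under 0.05, with a median log2 fold change of -1.72, and all 6 were highest in 6112. By limma-voom, and with title set as a random block, none of the 6 had an unadjusted p under 0.05. Without 6112 alone none of the 4 that could be tested had an unadjusted p under 0.05, at a median of -0.61. Without both animals the median over 3 markers was -0.03. Dynlrb2, Cfap77 and Cfap126 did not pass the filter for low counts then, so their place among the 6 rests in part on animals in which they were high.

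**Figure D1:**
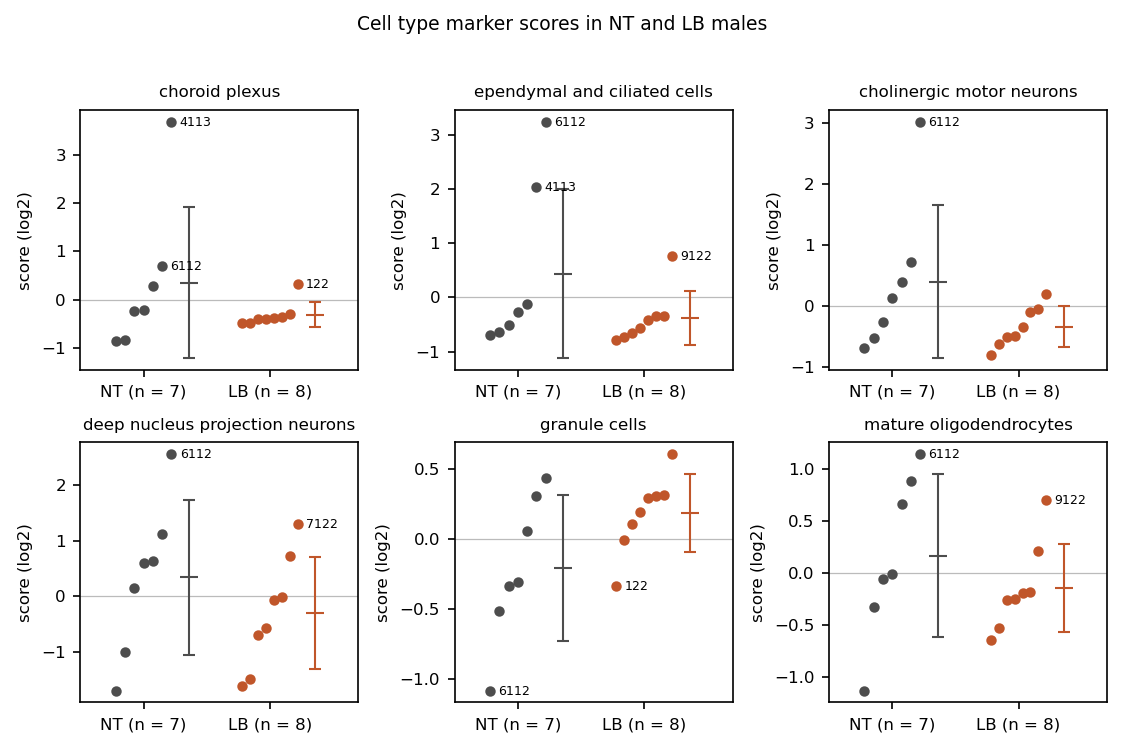
Marker scores of 6 cell types in NT males (n = 7, grey) and LB males (n = 8, orange), where a score is the mean over the markers of log2(CPM + 0.5), centred over the 15 males, and the bars are the mean ± SD. NT male 4113 sits at 3.68 for choroid plexus, and 6112 sits at 3.24 for ciliated cells, 3.01 for cholinergic neurons, 2.55 for deep nucleus neurons and -1.08 for granule cells.

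Markers of the projection neurons of the nucleus itself also varied widely between animals. Slc17a6, the vesicular glutamate transporter of these neurons, ranged from 0.28 to 380 CPM (median 12) in NT males and from 0.47 to 74.9 CPM (median 5.58) in LB males. NT male 6112 and LB male 7122 were the highest of their groups, and the groups overlapped. In NT male 4111 (0.28 CPM) and LB male 9121 (0.47 CPM) this defining marker of the nucleus was close to absent. The log2 fold change was -2.21 ± 0.93, and -0.09 without 6112 and 4113. Spp1, osteopontin, which marks large projection neurons, ranged from 1.22 to 441 CPM (median 8.39) in NT males and from 2.25 to 25.5 CPM (median 3.57) in LB males. NT males 6112, 4113 and 3111 were above every LB male, and the other 4 overlapped with them, with a log2 fold change of -3.64 ± 0.89 over all animals and -1.49 without 6112 and 4113.

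Of 10 deep nucleus markers, 9 were lower in LB males and 5 of these had an unadjusted p under 0.05. Their median log2 fold change was -1.02, and 8 of the 10 were highest in 6112. With title set as a random block none of the 10 had an unadjusted p under 0.05, and by limma-voom 1 had. The marker score had a mean of 0.34 ± 1.39 (SD) for NT and of -0.30 ± 1.0 for LB males, so the spread within each group was larger than the difference. With 6112 and 4113 left out the median was -0.57, and none of the markers was lower and 1 was higher at an unadjusted p under 0.05, and without 6112 alone 1 was lower. With the deep nucleus score less the granule cell score as a covariate, the median was -0.01. That covariate is built from the markers themselves.

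Granule cells were the counterpart. All 12 granule cell markers were higher in LB males, 3 of them at an unadjusted p under 0.05, with a median log2 fold change of 0.27. Cbln1, which granule cells release to build synapses on Purkinje cells, was between 754 and 1747 CPM (median 1144) in NT males and between 1144 and 2288 CPM (median 1757) in LB males. Of the 8 LB males 4 stood above every NT male and the others overlapped, with a log2 fold change of 0.49 ± 0.16. Gabra6, a GABA-A receptor subunit particular to granule cells in the cerebellum, was between 199 and 1152 CPM in NT males and between 527 and 1048 CPM in LB males, with a log2 fold change of 0.43 ± 0.29. Gabrd, the delta subunit that pairs with it, had one of 0.52 ± 0.20. NT male 6112 was the lowest of the 15 males for 8 of the 12 markers. With 6112 and 4113 left out the median was 0.19 and again 3 markers had an unadjusted p under 0.05. Without 6111 alone 1 had, without 3112 or 4111 the numbers were 6 and 5, and without both 6111 and 6112 the median was 0.09 and none had.

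Purkinje cell markers were divided. Of 9 tested, 6 were higher and 3 lower in LB males, with a median log2 fold change of 0.26 and 1 at an unadjusted p under 0.05. This was Gng13, a G protein gamma subunit, at 65.3 to 195 CPM (median 160) in NT males and 159 to 310.8 CPM (median 232) in LB males. Of the LB males 5 were above every NT male, and the log2 fold change was 0.63 ± 0.24. Pcp2, a Purkinje cell protein, had one of 0.43 ± 0.23. Of 9 markers of other cerebellar interneurons 4 were higher and 5 lower, with a median of -0.03. The 1 of them with an unadjusted p under 0.05 was the glycine transporter Slc6a5 of inhibitory neurons, which was lower in LB males, at 13.9 to 23.7 CPM (median 18.5) against 14.8 to 45.3 CPM (median 28.5) in NT males, with a log2 fold change of -0.64 ± 0.25. Every LB male lay below the NT median for Slc6a5, and the groups overlapped.

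Myelin genes were lower in LB males without passing the test. Oligodendrocytes wrap axons in myelin, of which myelin basic protein (Mbp) is a main protein. Mbp was between 7780 and 35734 CPM (median 11495) in NT males and between 8565 and 29514 CPM (median 12688) in LB males, with a log2 fold change of -0.33 ± 0.36. NT males held both the lowest and the highest value, so LB males lay within their range, and the median was higher in LB males although the fitted difference was negative. All 11 oligodendrocyte markers had a negative log2 fold change, 3 of them at an unadjusted p under 0.05, with a median of -0.36. With title set as a random block none had, and by limma-voom 1 had. Ugt8, the enzyme that makes galactosylceramide for myelin, was 1 of these 3 at -0.73 ± 0.32. Olig2, the transcription factor of the lineage, had a log2 fold change of -0.52 ± 0.23, and all 9 markers of oligodendrocyte precursors were lower, with a median of -0.35. With 6112 and 4113 left out none of these markers had an unadjusted p under 0.05, and the medians were -0.12 for oligodendrocytes and -0.08 for precursors. The 3 oligodendrocyte markers at that p became 0 on leaving out any 1 of NT males 3111, 4113 and 6112 and LB males 121 and 7121, 1 on leaving out LB male 123, 7122, 9121 or 9123, 5 or 6 without LB male 122 or NT male 3113, and 7 without LB male 9122.

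Cholesterol synthesis, which myelination draws on, followed the same pattern. All 18 genes of the pathway were lower in LB males, 6 of them at an unadjusted p under 0.05, with a median log2 fold change of -0.23. With title set as a random block 3 of them had that p, and with the composition covariate 1 had. Hmgcs1, the synthase that forms the precursor of mevalonate, was between 194 and 752 CPM (median 346) in NT males and between 187 and 361 CPM (median 205) in LB males. NT male 6112 was the highest, 7 of 8 LB males lay below the NT median, and the log2 fold change was -0.68 ± 0.21. NT male 6112 was highest for 14 of the 18 genes. Without 6112 alone 2 genes had an unadjusted p under 0.05, without 4111 alone 10 had, and without 6112 and 4113 none did, with a median of -0.11 and a value of -0.38 for Hmgcs1.

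In each of the other cell types at most 2 markers had an unadjusted p under 0.05. The median log2 fold change was -0.10 for astrocyte and Bergmann glia markers, -0.09 for microglia, -0.24 for endothelial cells, -0.25 for pericytes and smooth muscle, where 2 of 9 markers were lower at an unadjusted p under 0.05, and 0.10 for meningeal fibroblasts. With 2 markers tested in each, the median was 0.37 for red blood cells and -0.44 for monoamine neurons. Forebrain neuron markers were even at -0.01, though they varied widely between animals, from a score of -0.73 to 1.32 in NT males and from -1.0 to 1.09 in LB males. The first principal component of the males, with 36.7% of the variance, had the forebrain genes Cck, Ddn and Nrgn at one end. The second, with 19.9%, had Spp1, Slc5a7 and Slc17a6 at one end, where 6112 lay.

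Some genes were lower in LB males without resting on 6112 or 4113. Rai14 (chr2:60546090-60683451 of rn6), an actin-binding protein with ankyrin repeats, had 3.92 to 7.14 CPM (median 5.82) in NT males and 2.13 to 4.82 CPM (median 3.57) in LB males. Of the LB males 5 lay below every NT male and all 8 lay below the NT median, and the remaining values overlapped. Its log2 fold change was -0.70 ± 0.18, with an unadjusted p of 0.000466 and an adjusted p of 0.462 by edgeR, and it was -0.68 without 6112 and 4113. St3gal1, a sialyltransferase that caps O-linked glycans, had 0.69 to 4.36 CPM (median 2.25) in NT males and 0.69 to 1.39 CPM (median 1.05) in LB males. All LB males lay below the NT median for St3gal1, with a log2 fold change of -1.15 ± 0.29, and -1.17 without both animals.

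In all, 14 of the 606 genes lower in LB males kept their direction and an unadjusted p under 0.05 in each of the 38 alternative settings, which include leaving out each animal and each title set. They were Rai14, St3gal1, Cdh23, Irak3, Hsd17b7, Cep97, Klhl4, Lamc1, Epha10, Abhd2, Syne3, C1qtnf12, Xylb and Xdh, and they were picked on these values. Lamc1 encodes the gamma 1 chain of laminin, a basement membrane protein, and had 40 to 76 CPM (median 52.6) in NT males and 38 to 46.8 CPM (median 44.1) in LB males, a log2 fold change of -0.34 ± 0.10. Irak3 restrains signalling from Toll-like receptors and had a log2 fold change of -0.70 ± 0.19. Cdh23, a cadherin, had one of -1.03 ± 0.27 and Klhl4 one of -1.23 ± 0.36, both with 6112 as the highest animal. Hsd17b7, an enzyme of the cholesterol pathway that was not in the list above, had 4.41 to 9.4 CPM (median 5.83) in NT males and 3.03 to 5.33 CPM (median 3.99) in LB males. For Hsd17b7, 6 LB males were below every NT male, and the log2 fold change was -0.57 ± 0.17. NT male 6112 was also the highest animal for Lamc1, Irak3 and Hsd17b7.

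The genes higher in LB males differed less in size. Among those described next, NT male 6112 was the lowest male for Mxi1, Polr1d, H1f0, Msra and Dpysl4, but not for Ufd1 or Ccdc8. Mxi1 (chr1:274049676-274090071), a partner of MAX that opposes MYC, had 137 to 213 CPM (median 157) in NT males and 181 to 229 CPM (median 210) in LB males. All 8 LB males lay above the NT median and 3 lay above every NT male, with a log2 fold change of 0.33 ± 0.09. Polr1d, a subunit shared by RNA polymerases I and III, had 44.4 to 83.4 CPM (median 68.3) in NT males and 79.5 to 104 CPM (median 92) in LB males. A single LB male, 7121, overlapped with NT males, and the log2 fold change was 0.43 ± 0.12, or 0.35 without 6112 and 4113. H1f0, the replacement linker histone H1.0, had 194 to 325 CPM (median 246) in NT males and 293 to 453 CPM (median 361) in LB males, where 6 LB males were above every NT male. Its log2 fold change was 0.49 ± 0.14.

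Msra repairs oxidized methionine in proteins. It had 15.8 to 36.3 CPM (median 30.6) in NT males and 30.2 to 54.5 CPM (median 39.7) in LB males, with a log2 fold change of 0.58 ± 0.16. Ufd1, which delivers ubiquitinated proteins for extraction from the endoplasmic reticulum, had 91.7 to 110.4 CPM (median 106) in NT males and 109.5 to 135 CPM (median 124) in LB males. Here 7 LB males were above every NT male, and the log2 fold change was 0.26 ± 0.07, or 0.28 without 6112 and 4113. Dpysl4, a collapsin response mediator protein of growing axons, had a log2 fold change of 0.58 ± 0.17. Ccdc8, part of the 3M complex with CUL7 and OBSL1, had 5.04 to 10.1 CPM (median 7.95) in NT males and 8.71 to 14.8 CPM (median 13.1) in LB males, a log2 fold change of 0.65 ± 0.19.

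Genes of ribosome formation stood among them. Rsl24d1, a factor for the large ribosomal subunit, had a log2 fold change of 0.28 ± 0.08 with all LB males above the NT median. Rrp15, which acts in ribosomal RNA processing, had 20.9 to 26.5 CPM (median 22.4) in NT males and 25.9 to 34.3 CPM (median 29.4) in LB males, a log2 fold change of 0.37 ± 0.11. Both were examined among the genes with small p values, and no list of such factors was counted. In each of the 38 alternatives 12 of the 605 genes higher in LB males kept their direction and an unadjusted p under 0.05. These were Mxi1, Msra, Polr1d, H1f0, Ufd1, Dpysl4, Ccdc8, Igsf21, Rrp15, Shisa8, Elk1 and Slc2a10, again picked on these values. Zadh2 and the unnamed locus LOC100363289 also belonged to the 10 genes with the smallest p in this direction, at log2 fold changes of 0.31 ± 0.09 and 1.48 ± 0.44, the latter from at most 28 counts in any male. Single LB males stood out for 2 other genes with large positive log2 fold changes. LOC100911498 had 106 counts in LB male 123 and at most 5 in other males. Shox2 had 436 counts in LB male 7122 and at most 74 in other males.

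**Figure D2:**
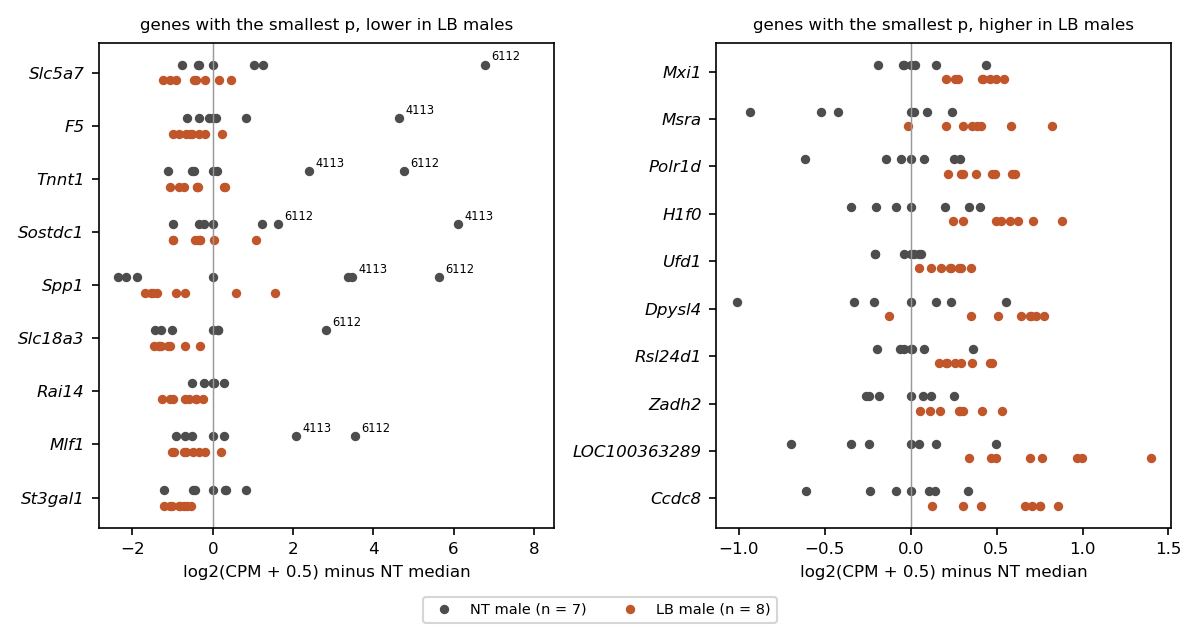
Genes named here among the 10 with the smallest p in each direction, as log2(CPM + 0.5) less the NT median, with 1 point for each NT male (grey, n = 7) and LB male (orange, n = 8). Among the genes lower in LB males NT male 6112 or 4113 lies far to the right for most genes, but not for Rai14 and St3gal1. For the genes higher in LB males the groups overlap, and NT male 6112 is the lowest animal for Mxi1, Polr1d, H1f0, Msra and Dpysl4.

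Genes of cytosolic ribosomal proteins lay almost all on 1 side. Their products are the protein part of the ribosome, and the mRNAs are among the most abundant in neurons. Of 78 tested genes 77 were higher in LB males and 38 of these had an unadjusted p under 0.05, with a median log2 fold change of 0.37, beside -0.02 over all genes. The values ran from -0.26 (Rps6) to 0.56 (Rps10). Rps4x had 225 to 308 CPM (median 245) in NT males and 266 to 403 CPM (median 344) in LB males, where 5 LB males lay above every NT male. Its log2 fold change was 0.39 ± 0.12. Rps10 had 88.4 to 309 CPM (median 213) in NT males and 200.3 to 378 CPM (median 281) in LB males, with 3 LB males above every NT male and a log2 fold change of 0.56 ± 0.25.

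The direction of the median held in all 38 alternative settings, with values from 0.15 to 0.59. Its size, and the number of genes at an unadjusted p under 0.05, depended on single animals. NT male 6112 had the lowest level of 69 of the 78 genes, and an LB male had the highest of 73. For the ribosomal protein score NT males had a mean of -0.19 ± 0.32 (SD, n = 7), and LB males had one of 0.17 ± 0.23 (SD, n = 8). It was lowest in NT males 6112 (-0.71) and 6111 (-0.49), and 3 LB males were above every NT male. The means of the NT title sets were 0.07, -0.17 and -0.60, and those of the LB sets were 0.21, -0.08 and 0.29, so the sets overlapped between treatments. Without 6112 and 4113, 75 genes were higher, at a median of 0.29. Of these, 4 had an unadjusted p under 0.05 (5.13%, against 2.02% of all genes). Leaving out 6111 alone left 6 genes at that p, leaving out 6112 alone left 10, and leaving out LB males 123, 9122 or 9123 left 15, 17 and 19. Leaving out NT male 4111 left 16, and leaving out NT male 3111 raised the number to 65. Without 6111 and 6112 together 72 genes were higher, at a median of 0.18. Of these, 1 had an unadjusted p under 0.05 (1.28%, against 0.449% of all genes).

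**Figure D3:**
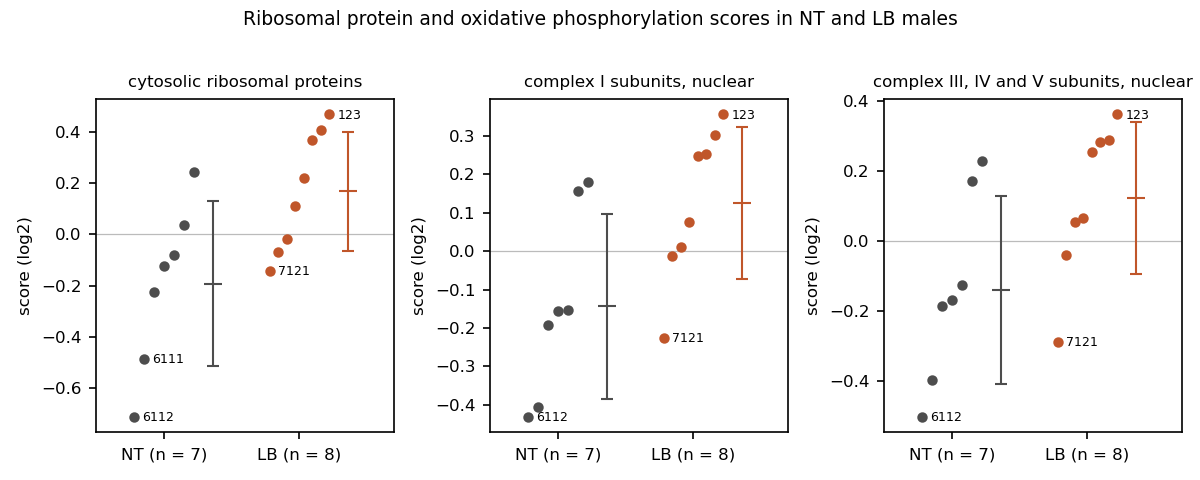
Scores of cytosolic ribosomal proteins and of nuclear-encoded subunits of oxidative phosphorylation in NT males (n = 7, grey) and LB males (n = 8, orange), as the mean over genes of log2(CPM + 0.5), centred over the 15 males, with the mean ± SD. NT male 6112 has the lowest ribosomal protein score (-0.71) and LB male 123 the highest (0.47), and the groups overlap in all 3 panels.

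Many ribosomal protein mRNAs start with a 5′ terminal oligopyrimidine tract, a C at the first base followed by an unbroken run of C and T letters, which places their translation under the control of mTOR. The starts annotated by RefSeq on the GRCr8 build, the only build with sequences here, were searched for a C at the start base followed by 5 letters that are each C or T, on the strand of the gene. This was found in 20 of 62 matched ribosomal protein genes (32.3%), against 438 of 27457 annotated genes (1.60%) and 160 of 9333 matched genes that were tested (1.71%). The 4 ribosomal protein genes with the run and the smallest p are shown from 10 bases before the start, with the run from the start base in capitals.
Rpl17: ttcgcgcttcCTCTTCCTgtta
Rpl10a: cttctgccttCTTTTCCggttc
Rps3a: gtacttccgcCCTTTTggctct
Rpl9: aggacgttctCTCTTTgcccca
They lie at chr18:70856266-70856287 (plus strand), chr20:6390523-6390544 (plus), chr2:173827031-173827052 (minus) and chr14:43247580-43247601 (plus) of GRCr8. An annotated start can differ from the start used in this tissue, and a match is a description of the letters in this window.

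The genes with the run did not stand apart from the others. Their median log2 fold change was 0.39, and that of the 42 matched ribosomal protein genes without it was 0.36. Rpl17, a protein of the large subunit, had 536 to 948 CPM (median 830) in NT males and 852 to 1345 CPM (median 1007) in LB males, where 6 LB males were above every NT male, with a log2 fold change of 0.45 ± 0.16. Rps3a, of the small subunit, had 354 to 594 CPM (median 480) in NT males and 478 to 769 CPM (median 627) in LB males, with a log2 fold change of 0.38 ± 0.14. Rpl10a and Rpl9, both of the large subunit, had log2 fold changes of 0.48 ± 0.18 and 0.55 ± 0.21. In the count table the exons of Rpl9 and Rpl10a lie on more than 1 chromosome, as do those of 13 of the 78 genes (16.7%, against 0.322% of all genes tested). Ribosomal protein genes have many processed copies in the genome, and how reads that map to several places were counted is not given in the sources used here, so their levels are less certain than those of other genes.

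Subunits of oxidative phosphorylation were higher together with ribosomal proteins. Of 32 nuclear genes of complex I, the first enzyme of the respiratory chain, 31 were higher in LB males and 5 had an unadjusted p under 0.05, with a median log2 fold change of 0.26. Of 39 nuclear genes of complexes III, IV and V, 38 were higher and 5 had an unadjusted p under 0.05, with a median of 0.30. Uqcrfs1, the Rieske iron-sulfur protein of complex III, had 215 to 381 CPM (median 356) in NT males and 317 to 554 CPM (median 398) in LB males, with a log2 fold change of 0.36 ± 0.14. Ndufa7 and Ndufb2 of complex I had log2 fold changes of 0.51 ± 0.21 and 0.51 ± 0.25, and Uqcr10 of complex III had one of 0.45 ± 0.22. With 6112 and 4113 left out the medians were 0.19 and 0.23, and 0 and 2 genes had an unadjusted p under 0.05. These counts moved with nearly every animal. Leaving out 6111 gave 0 genes in both lists, and 6112 gave 0 and 2. Leaving out NT male 3111 gave 13 and 20, NT male 3113 gave 16 and 13, and LB male 7121 gave 14 and 12. The range over the other animals was 1 to 9 for complex I and 3 to 7 for complexes III to V.

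Proteasome subunits, which degrade ubiquitinated proteins, had a smaller median log2 fold change, 0.15. Of 37 tested 32 were higher and 2 (5.41%) had an unadjusted p under 0.05, close to the 5.0% of all genes. Psma4, of the alpha ring of the core particle, had 126 to 183 CPM (median 162) in NT males and 168 to 240 CPM (median 193) in LB males. For Psma4 6 LB males were above every NT male, with a log2 fold change of 0.31 ± 0.10, and Psmb3, of the beta ring, had one of 0.37 ± 0.18.

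Exon length moved with these groups. The median exon length was 697 bases for ribosomal proteins, 668 for complex I and 600 for complexes III to V, which places all 3 medians in the shortest of 10 equal bins of the genes tested (60 to 1024 bases). Among the other genes, with these lists and the proteasome left out, the median log2 fold change was 0.16 in the shortest bin and -0.14 in the longest (4792 to 23521 bases), with an ordered decrease between them. In the shortest bin 10.8% of these other genes were higher at an unadjusted p under 0.05 and 2.39% were lower, and in the longest bin 0.744% were higher and 9.18% lower. The mean level of short genes less that of long genes, centred over the males, had a mean of -0.13 ± 0.28 (SD, n = 7) for NT and of 0.12 ± 0.20 (SD, n = 8) for LB males. It was lowest in NT males 6111 (-0.46) and 6112 (-0.39) and highest in LB male 9122 (0.39). The part of length in the ribosomal protein and oxidative phosphorylation values was not tested.

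**Figure D4:**
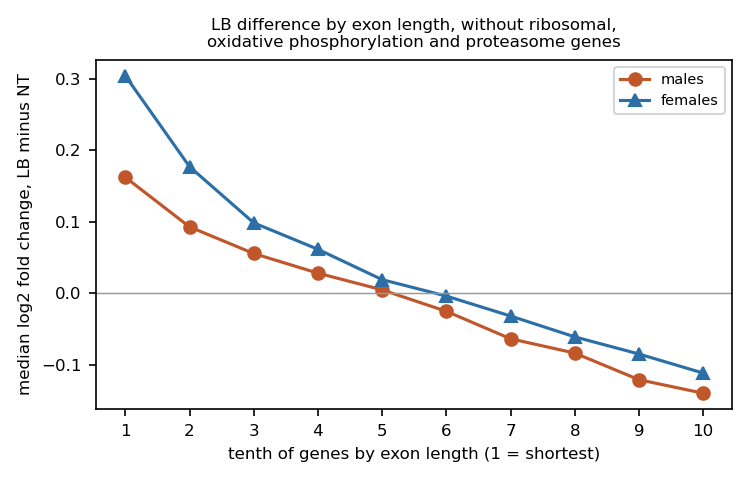
Median log2 fold change of LB against NT in 10 equal bins of the genes tested by exon length, from the shortest (1) to the longest (10), with ribosomal protein, oxidative phosphorylation and proteasome genes left out. The median falls from 0.16 to -0.14 in males (circles) and from 0.30 to -0.11 in females (triangles).

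Corticosterone acts through the glucocorticoid receptor (Nr3c1) and the mineralocorticoid receptor (Nr3c2), which induce feedback genes such as Fkbp5 and Tsc22d3. None of these had an unadjusted p under 0.05. Fkbp5, a cochaperone that lowers the affinity of the receptor for its ligand, had 19.2 to 32.7 CPM (median 25.6) in NT males and 20.5 to 32.3 CPM (median 28) in LB males, with a log2 fold change of 0.10 ± 0.11. Nr3c1 had one of -0.13 ± 0.18 and Nr3c2 one of -0.10 ± 0.15. The target genes Sgk1, Per1 and Tsc22d3 had log2 fold changes of -0.14 ± 0.12, -0.18 ± 0.20 and 0.08 ± 0.14. The unadjusted p values of these 6 genes ran from 0.259 (Sgk1) to 0.581 (Tsc22d3), which does not show that their levels were the same.

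Over the list of 20 glucocorticoid target genes, 13 were higher and 7 lower, with a median log2 fold change of 0.08 and 2 higher at an unadjusted p under 0.05. Cebpb, a transcription factor of the acute response, was the member with the smallest p. It had 3.16 to 5.05 CPM (median 3.3) in NT males and 4.53 to 5.7 CPM (median 4.95) in LB males, and all LB males lay above the NT median, with a log2 fold change of 0.48 ± 0.19. Among 10 genes of the receptors and their feedback the median was -0.07, and none had an unadjusted p under 0.05. Hsd11b1, the enzyme that regenerates corticosterone inside cells, was the member of that list with the smallest p, at a log2 fold change of 0.26 ± 0.13.

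Immediate early genes, which neurons switch on within minutes of activity, varied more between animals than between treatments. Fos had 8.45 to 69.7 CPM (median 44.5) in NT males and 7.67 to 124 CPM (median 70.1) in LB males, with a log2 fold change of 0.77 ± 0.40. Ier2 had 10.2 to 37.7 CPM (median 27) in NT males and 26.5 to 51.7 CPM (median 40.8) in LB males, and 5 LB males lay above every NT male, with a log2 fold change of 0.61 ± 0.20. It was the only 1 of 17 genes of the list with an unadjusted p under 0.05 (5.88%, close to the 5.0% of all genes), and the median of the list was 0.02. That median depended on the model, since it was 0.44 by limma-voom, with 16 of 17 genes higher and 2 at an unadjusted p under 0.05, and 0.25 with the composition covariate. The score of the list ranged from -1.39 to 1.62 in NT males and from -1.29 to 1.24 in LB males. Of 15 circadian clock genes 12 were lower, with a median of -0.07 and none at an unadjusted p under 0.05.

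The endocannabinoid system, through which postsynaptic lipids quiet presynaptic terminals, was evenly divided. Of 25 tested genes 12 were higher and 13 lower in LB males, with a median log2 fold change of -0.02. Cnr1, the CB1 receptor, had 332 to 956 CPM (median 563) in NT males and 378 to 825 CPM (median 666) in LB males, with a log2 fold change of 0.12 ± 0.24 and an adjusted p of 0.855 by edgeR. The LB males lay within the range of the NT males. Cnrip1, a protein that binds the tail of that receptor, was the 1 member with an unadjusted p under 0.05, at 96.8 to 195 CPM (median 130) in NT males and 148 to 218 CPM (median 175) in LB males. Its log2 fold change was 0.28 ± 0.12, and 0.15 without 6112 and 4113. A share of 1 in 25 (4%) was below the 5.0% of all genes.

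**Figure D5:**
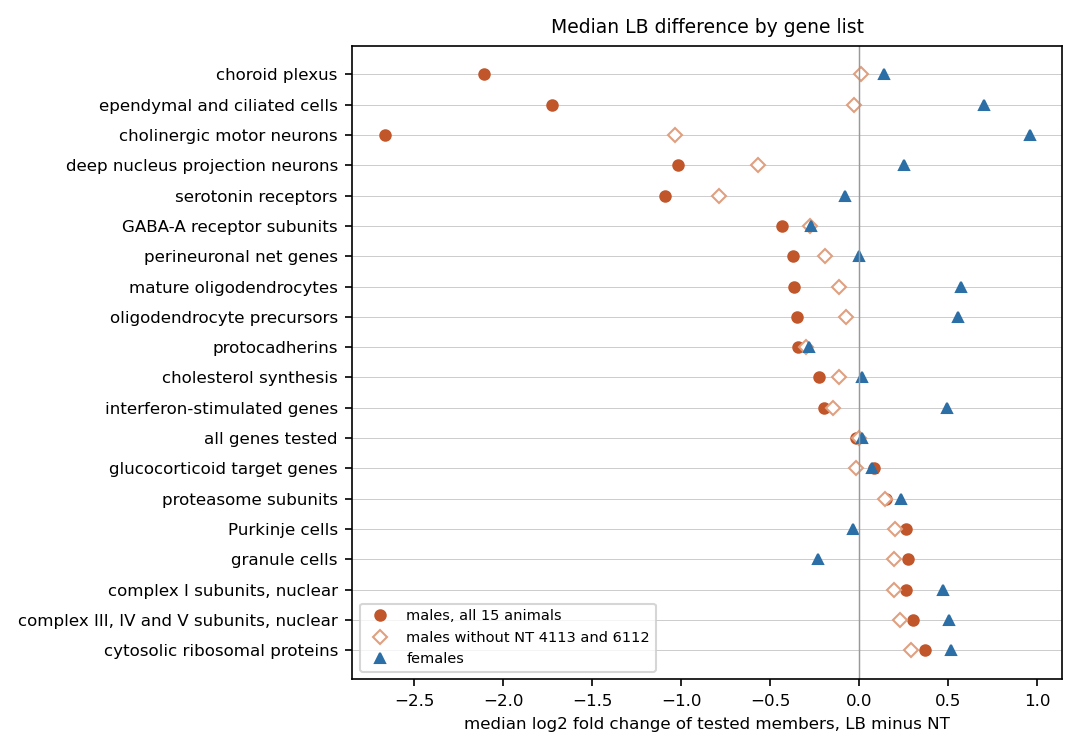
Median log2 fold change of LB against NT males for each cell type and gene list, with all animals and without NT males 6112 and 4113, beside the same in females. The medians of choroid plexus and ciliated cell markers move from -2.11 and -1.72 to 0.01 and -0.03 without the 2 animals, and those of ribosomal protein genes stay above 0, at 0.37 and 0.29.

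The same comparison in females (7 LB and 5 NT) shares no animal with that in males. In females 841 genes (6.95%) were higher and 120 (0.991%) lower in LB animals at an unadjusted p under 0.05. Over all genes the sign of the log2 fold change was the same in both sexes for 63.8%. Of the 605 genes higher in LB males 484 (80%) were higher in LB females as well, and of the 606 genes lower in LB males 337 (55.6%) were also lower in LB females. The test of the difference between the sexes, the interaction of sex and treatment, gave 0 genes past the adjusted threshold by edgeR, and 570 (4.71%) at an unadjusted p under 0.05. By DESeq2 and by limma-voom 0 genes passed as well.

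Ribosomal protein genes had the same direction in both sexes. In females 77 of 78 were higher in LB animals, 63 of them at an unadjusted p under 0.05, with a median log2 fold change of 0.51, and 0 of the 78 had an unadjusted interaction p under 0.05. Without LB female 5022 the female median was 0.35, with 25 of them at an unadjusted p under 0.05. Complex I had a median of 0.47 and complexes III to V one of 0.50 in females, with 0 and 1 genes at an unadjusted interaction p under 0.05. The decrease with exon length was also present in females, and its part in these values was not tested there either.

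Myelin genes had opposite signs in the sexes. All 11 oligodendrocyte markers were higher in LB females, with a median log2 fold change of 0.57 against -0.36 in males, and 9 of the 11 had an unadjusted interaction p under 0.05. The male value depended on NT males 6112 and 4113. Without both, the male median was -0.12 with 2 of the 11 markers higher, and that of precursors was -0.08. The interaction counts given here include both animals. Mbp had a log2 fold change of -0.33 ± 0.36 in males and 1.18 in females, with an unadjusted interaction p of 0.0101. LB female 5022 had 2.85% of its counts in Mbp, against 0.579% to 1.13% in the other LB females and 0.415% to 0.615% in NT females. Without that animal, left out after its values were seen, Mbp had a log2 fold change of 0.67 in females and an unadjusted interaction p of 0.0351. The medians in females were then 0.42 for oligodendrocytes, with 10 of 11 markers at an unadjusted interaction p under 0.05, and 0.23 for precursors, with 2 of 9. Of 9 precursor markers 5 had an unadjusted interaction p under 0.05, with medians of -0.35 in males and 0.55 in females. Ciliated cell markers also had opposite signs, at -1.72 in males and 0.70 in females, with all 6 at an unadjusted interaction p under 0.05 (2 of 5 without 5022), and the male value is that set by 6112 and 4113. Granule cell markers had a median of 0.27 in males and -0.23 in females, and 3 of 12 had an unadjusted interaction p under 0.05. Ccdc8 and Mxi1, higher in LB males, had log2 fold changes of -0.34 and -0.12 in females, with unadjusted interaction p values of 0.00182 and 0.00279. Deep nucleus markers had a median of -1.02 in males and 0.25 in females, and the part of punch composition in these differences between the sexes was not tested.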

How the data were processed

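The authors aligned the reads of KAPA mRNA HyperPrep libraries to the rn6 rat genome with STAR 2.5.2b and counted them on genes with featureCounts (Subread 1.5.1), per the submitters' processing notes, and the deposited table holds raw counts, not normalized, of 17321 genes. Samples below a cutoff for RNA integrity had been removed by the study, and the integrity of each animal kept is not among the sample labels. The setting for strand and for reads that map to several places is not given in the sources used here. Columns were matched to animals by title, and 0 columns of samples were left unused. Among 49 pairs of males within a group 0 had identical counts.

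From the counts, edgeR 4.0.16 in R 4.3.3 kept 12107 genes (filterByExpr, minimum count 10, minimum total count 15), with TMM normalization. The robust quasi-likelihood model was fitted to all 27 animals in 4 groups with a prior count of 0.125, as in the factorial analysis of the study, and LB was contrasted with NT in males. To obtain an SE, the size of a log2 fold change was divided by the root of F. The model was tested on simulated data. Adjustment over all genes followed Benjamini and Hochberg. A p value measures the spread between animals, pooled over the 4 groups and taken as independent, and not the spread between title sets or cages. The correlation within a title set, estimated for the random block, was 0.17. With that block in limma-voom 485 genes were higher and 152 lower in LB males at an unadjusted p under 0.05, against 758 and 298 without it. From 3 counts, or 0.125 to 0.260 CPM in a male, a gene was taken as detectable, a floor that covers counting error only. Marker scores average log2(CPM + 0.5).

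The males, the gene lists and the tests were chosen with earlier results of these data known. Genes were named where they passed the adjusted threshold in the main tools, had the 10 smallest p in a direction, did not overlap between groups, belonged to a glucocorticoid set, or were the first 2, the smallest p or the largest difference of a list. Cdh23, Irak3, Hsd17b7, Klhl4, Rrp15, Elk1, Rpl17, Rps3a, Rpl9, Rps6, the leading genes of principal components and the other genes kept in every alternative fall outside that rule and were chosen after their values were seen. Some genes that the rule names are not reported here. Alternatives were DESeq2 1.42.0, limma-voom (limma 3.58.1), other normalizations and filters, males alone, a random block by title set, covariates for composition and meninges, 2 surrogate variables (sva 3.50.0), and leaving out each animal or title set. Leaving out 4113 and 6112, with or without 6111, and LB female 5022 was added after seeing the data.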

Additional observations from a re-analysis of the deposited data

Results flagged for a closer look

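Within a group of males, 32 of 260 tests found the highest or lowest animal far from its nearest neighbour by Dixon's criterion. The criterion flags about 1 in 20 groups of independent normal values. Many of the flagged genes were named for their values in these same data and vary together, so the 32 cannot be set against that rate. Levels are in CPM. NT male 6112 was far above the other NT males for Slc5a7 (131), Slc18a3 (10.6), Spp1 (441), Tnnt1 (53.7), Mlf1 (14.1), Slc17a6 (380), Htr2c (188), Acan (16.4) and Itgb8 (27.5). Its scores for cholinergic neurons (3.01) and monoamine neurons (1.33) were far above as well. These genes span cholinergic neurons, glutamatergic neurons, a serotonin receptor and the perineuronal net component Acan.

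NT male 4113 was far above the other NT males for F5 (32.4), Sostdc1 (67.5), Ttr (6339), Folr1 (31.6), Cldn2 (29.2), Kcnj13 (37.7), Col8a1 (6.93) and for the choroid plexus score (3.68).

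Among LB males, 122 was highest for Sostdc1 (1.58), Ttr (168), Cldn2 (0.924), Htr2c (45.3) and the choroid plexus score (0.328) and lowest for Gabrd (296). LB male 7122 was highest for Spp1 (25.5), Slc17a6 (74.9) and Acan (6.12), and LB male 9122 for Cfap126 (3.22), Mbp (29514), Sema4d (99.7) and the score of ciliated cells (0.773). The LB values of Spp1, Slc17a6 and Ttr that stood apart were all below the highest NT value.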

How the results depend on the processing

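No paired analysis was possible because replicate numbers only name the animals. Genes past the adjusted threshold numbered 3 with DESeq2, 5 with the likelihood ratio test and 23 with 2 surrogate variables, and 0 to 13 when animals or title sets were left out, the 13 without the NT males 3111, 3112 and 3113. Genes higher in LB males at an unadjusted p under 0.05 numbered 338 with upper quartile normalization, 402 with DESeq2 size factors, 363 with 10 counts required in every animal, 360 with both covariates, 1306 with surrogate variables, 243 without 4113 and 6112, 46 without 6111 as well, and 54 to 1324 leaving out animals or sets. Genes lower numbered 298 with limma-voom, 954 without a filter, 152 with the random block by title set, 194 with the composition covariate, 150 with both covariates, 153 without 4113 and 6112, 127 without 6111 as well, and 184 to 1316 leaving out animals or sets. The share of the genes at that p that were higher was 50.0%, and 34.6% with library size alone, 31.2% with upper quartile, 35.0% with DESeq2 size factors, 36.5% with DESeq2, 71.8% with limma-voom and 76.1% with the block. Over all settings the median of all genes stayed between -0.05 and 0.02.

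The choroid plexus median was -0.92 with limma-voom, -0.98 with the block, 0.0082 without 4113 and 6112, -0.070 without 6111 as well, and -2.75 to -0.17 leaving out animals or sets. That of ciliated cells was -0.029 and 0.011 without the 2 and the 3 animals and -3.0 to -0.61 leaving out others. That of cholinergic neurons was -1.71 with DESeq2, -1.63 with limma-voom, -0.34 with 10 counts in every animal, -1.31 with males only, -1.65 with the block, -0.33 with either composition covariate, -1.04 and -0.98 without the 2 and the 3 animals, and -3.17 to -0.48 leaving out others. The directions of the medians of ribosomal proteins, oxidative phosphorylation, granule cells, oligodendrocytes and cholesterol synthesis held in all 38.

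Signs reversed for Tnnt1 and Foxj1 without the 2 (0.012, 0.29) and the 3 animals (0.10, 0.067), for Slc17a6 with the composition covariate (0.18) and both covariates (0.19), for Nr3c1 (0.015) and Nr3c2 (0.0090) with surrogate variables, and for Cnr1 with the composition and both covariates (-0.072, -0.070). Without the 3 animals they reversed for Nr3c2 (0.019), Tsc22d3 (-0.058), Cnr1 (-0.0057) and Kcna3 (0.79). Leaving out animals or sets gave -0.23 to 0.0053 for Nr3c2, -0.029 to 0.20 for Fkbp5, -0.43 to 0.075 for Per1 and -0.13 to 0.28 for Tsc22d3. The cause of these changes was not tested. At 8 against 7 animals, differences near the median SE of 0.18 could not be resolved.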

Other observations

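Serotonin receptors were lower in LB males for all 8 genes tested, with a median log2 fold change of -1.09 and 2 at an unadjusted p under 0.05. Htr2c had 2.73 to 188 CPM (median 26.2) in NT males and 1.31 to 45.3 CPM (median 5.79) in LB males, with a log2 fold change of -2.03 ± 0.67, and 7 of 8 LB males lay below the NT median. Htr1b had 0.35 to 6.66 CPM (median 2.33) in NT males and 0.69 to 1.55 CPM (median 1.1) in LB males, with a log2 fold change of -1.25 ± 0.47. NT male 6112 was the highest for both. Without 6112 and 4113 the filter for low counts removed the others, and all 6 that could be tested were still lower. Their median was -0.79 with none at an unadjusted p under 0.05, and in females the median of the list was -0.08.

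Several families of adhesion and channel genes were lower in LB males by small amounts. Of 47 protocadherins, a family of adhesion proteins, 40 were lower with a median of -0.35, and 40 of 47 were lower in females too at a median of -0.29. In males 2 (4.26%) had an unadjusted p under 0.05, a share below the 5.01% of all genes, and by limma-voom 0 had, 1 of the 2 being Pcdh18 at -0.48 ± 0.19. Voltage-gated potassium channels had a median of -0.36 and sodium channels one of -0.33, with members in both directions: Kcna3 (-1.48 ± 0.71) and Scn1a (-0.86 ± 0.37) were lower, and Kcnc1 (0.36 ± 0.14) was higher. Without 6111 and 6112 the medians were -0.07 for protocadherins, 0.01 for potassium channels and -0.03 for sodium channels. GABA-A receptor subunits had a median of -0.44 with all animals and 0.21 without those 2.

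Extracellular matrix genes were lower more evenly. Of 25 laminins and integrins 17 were lower, 6 of them at an unadjusted p under 0.05, with a median of -0.21, and -0.17 without 6112 and 4113. Itgb8 had a log2 fold change of -1.09 ± 0.47 and Itga1 one of -0.85 ± 0.37. Of 24 collagen chains 19 were lower, with a median of -0.21, and Col8a1 had a value of -1.70 ± 0.50 with 4113 as the highest animal, and -0.65 without 6112 and 4113. Dcn, decorin of meningeal fibroblasts, had one of -0.43 ± 0.17, although 6 of 10 markers of these cells were higher, with a median of 0.10. Igf1r, the receptor of insulin-like growth factor 1, had 10.6 to 22.2 CPM (median 16.3) in NT males and 7.99 to 15.9 CPM (median 11) in LB males, with a log2 fold change of -0.52 ± 0.20 that was -0.53 without 6112 and 4113. Sema4d, a semaphorin of oligodendrocytes, had 48.8 to 119 CPM (median 79.7) in NT males and 38 to 99.7 CPM (median 45.5) in LB males, with a log2 fold change of -0.58 ± 0.21. Perineuronal net genes had a median of -0.37, and Acan, their main proteoglycan, had a log2 fold change of -1.17 ± 0.44, or -0.44 without 6112 and 4113. None of the genes named in these paragraphs had an adjusted p under the threshold by the quasi-likelihood test of edgeR.

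Interferon-stimulated genes had a median of -0.20 in males and 0.49 in females, and 5 of 16 had an unadjusted interaction p under 0.05.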
